A study of Homo sapiens with 6 samples.

Results

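The genes described here are 9 targets of p53, namely CDKN1A, MDM2, GDF15, BBC3, SESN1, ZMAT3, TP53I3, TP53INP1 and DDB2. They were taken by symbol from a count table of 58735 genes, in which each of the 9 has 1 row. The RNA came from Het1A, a line of human oesophageal epithelial cells immortalised with the large T antigen of the virus SV40. In 3 bile acid libraries the cells had met medium of pH 4.0 with 100 µM of mixed bile acids (glycocholic, taurocholic, glycodeoxycholic, glycochenodeoxycholic and deoxycholic acid) for 10 min a day on 5 days. In 3 control libraries they had met 0.1% DMSO, the solvent. Serum was lowered to 1% in both groups 48 h ahead of the exposures and stayed there, and cells were harvested 24 h after the fifth exposure. Acidified medium is described for the bile acid group alone, so acid and bile acids cannot be told apart. The libraries are called biological replicates without a word on separate cultures, so p-values measure the spread between these libraries, which may be technical.

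p53 is a transcription factor that damaged or stressed cells stabilise, and that switches on genes for cell cycle arrest, DNA repair, metabolic protection and apoptosis. Its level is held down by MDM2, a ubiquitin ligase that is itself a p53 target, which closes a negative feedback loop. SV40 large T antigen binds p53 and blocks its activity as a transcription factor, and binds the RB proteins as well. All 6 libraries come from cells that carry it, so both groups share this limit as a model of the p53 response. Transcripts of T antigen itself were not analysed here.

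MDM2 and DDB2 carry matches to the p53 site beside a start of transcription, and these sequences show the letters p53 recognises. A p53 site is built from a pair of half-sites of 10 bases. A match was allowed up to 2 mismatches outside the fixed C and G of each half-site and a spacer of up to 13 bases, and the motif reads the same on both strands. In RefSeq (GRCh38.p14), 8 of the 9 genes had at least 1 window running from 250 bases before to 50 bases after a start, 15 windows in all. Capitals mark the half-sites that meet this rule. A site with a change at a fixed C or G is not marked, so lower-case letters may hold sites that the rule excludes.
MDM2, chr12:68808883-68808982, plus strand: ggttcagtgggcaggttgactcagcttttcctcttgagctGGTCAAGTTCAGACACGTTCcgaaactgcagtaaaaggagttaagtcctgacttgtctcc
DDB2, chr11:47214979-47214999, plus strand: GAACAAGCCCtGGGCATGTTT
The MDM2 match holds 2 mismatches and no spacer. It begins 94 and 101 bases before the pair of downstream MDM2 starts, in sequence that is intronic in 7 of the 34 MDM2 transcripts of GENCODE release 29 and exonic in 0. The DDB2 match holds 0 mismatches and a spacer of 1 base, and begins at base 6 after a start, in the untranslated part of an exon of 2 of the 16 DDB2 transcripts. This DDB2 window holds 2 further matches, each with 1 mismatch, which begin 5 bases before the start and share half-sites with the printed one. A match with up to 2 mismatches was found in 2.93% of all 35116 windows, and a match with none in 10 windows. The windows of CDKN1A, GDF15, BBC3, SESN1, ZMAT3 and TP53I3 held no match, which says only that these letters are not within those windows.

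Library totals ran from 21006677 to 28497721 counts, so that 3 counts correspond to 0.104 to 0.168 CPM (counts scaled to a common library total with TMM factors). That floor covers counting error only, and each of the 9 genes had at least 105 counts in every library. Control 2 stood apart from the other 5 libraries on the first principal component (145 against −44.0 to −6.89), and the medians of the p53 lists, the calls among the 9 and each named fold change that turned sign are therefore given with and without it. Markers checked the label: EPCAM reached 37.9 to 74.7 CPM, the oesophageal factor PAX9 37.6 to 62.9 CPM and KRT17 46.0 to 143 CPM. The basal squamous markers KRT5, KRT14 and TP63 reached at most 0.511 CPM, and the differentiation keratins KRT4 and KRT13 had 0 counts. KRT8, a keratin of simple epithelium, measured 325 to 654 CPM. Of 11 markers of simple or columnar epithelium 5 stayed under 1 CPM in every library, namely KRT20, CDX2, VIL1, MUC2 and TFF3. Of 6 leukocyte markers 5 stayed under 1 CPM in every library, with PTPRC, CD3E and LYZ at 0. CD14, the remaining leukocyte marker, measured 9.16 to 16.1 CPM. Of 10 fibroblast and mesenchyme markers only 4 stayed under 1 CPM in every library, namely COL1A2, COL3A1, DCN and LUM, with COL3A1 at 0. FN1 measured 254 to 771 CPM, VIM 102 to 213 CPM, COL1A1 42.7 to 231 CPM and THY1 73.8 to 179 CPM.

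No p53 target among the 9 passed the test between bile acid and control libraries. The quasi-likelihood test of edgeR, adjusted over 17743 genes, called 0 of 9 with the lowest adjusted p at 0.911, against a background of 0% called. At an unadjusted p under 0.05 it held 0 of the 9, beside 3.31% of all genes, and limma-voom and DESeq2 also called 0 of the 9, where they called 0% and 0.111% of all genes. At an unadjusted p under 0.05 limma-voom held 0 of the 9 and DESeq2 held 1, CDKN1A, where DESeq2 held 851 of all genes. The authors' deposited table calls 0.129% of its genes and none of the 9. In RNA from whole cultures, a change in RNA per cell and a change in the share of cells that hold it cannot be told apart. The median log2 fold change of the 9 was 0.10, with 6 of 9 above 0, beside a median of −0.01 and 48.8% above 0 over all genes. Without control 2 edgeR again called 0 of 9 (background 0.00547%) and DESeq2 0 of 9 (background 0.979%). The median of the 9 was then 0.16 and 8 of 9 values were above 0. Among the 17743 genes tested the median was then 0.006, with 9056 above 0. Among the 9, CDKN1A alone had all bile acid libraries above all controls, a pattern that 5.29% of genes showed, and 0 of 9 had all below, beside 4.89% of genes.

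**Figure D1:**
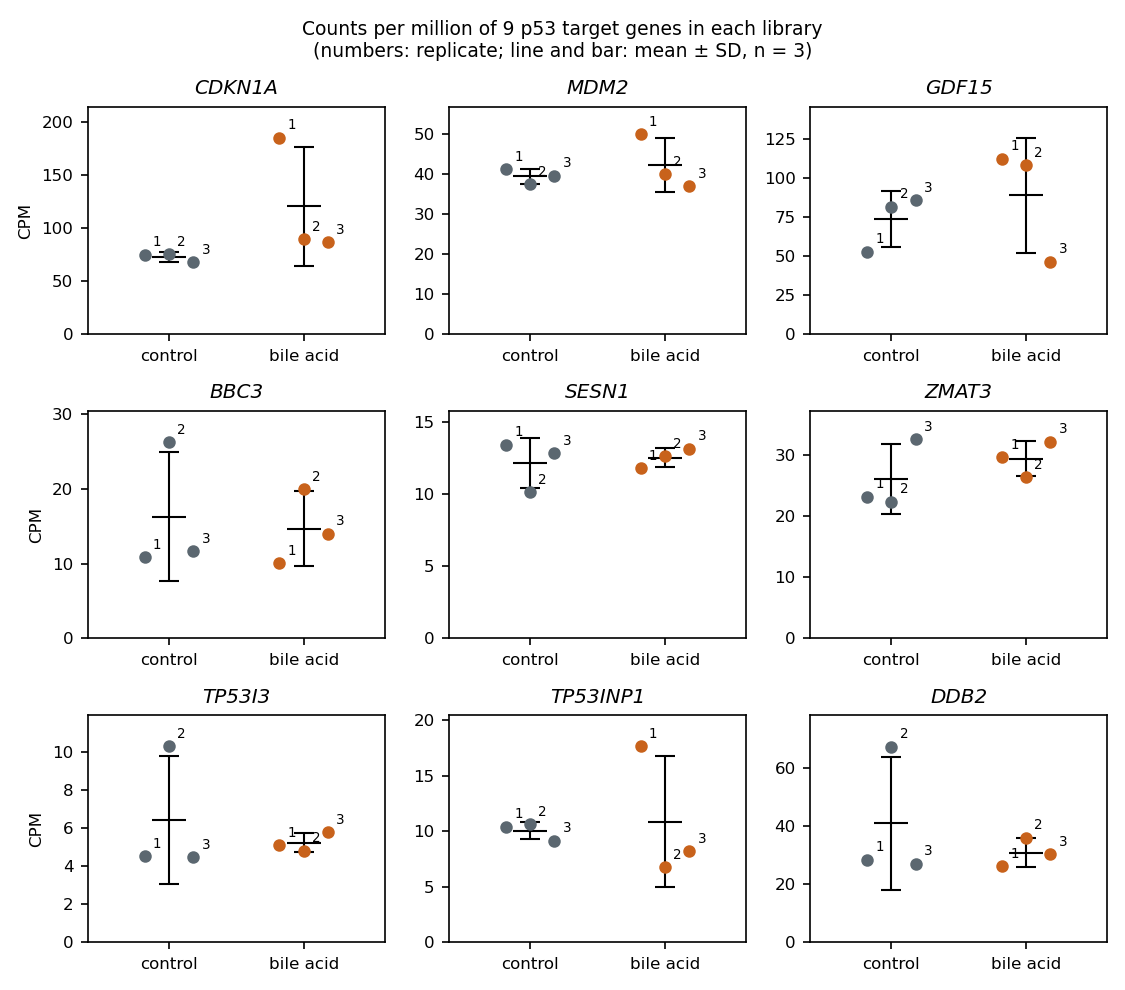
Each panel plots 1 gene, with CPM (TMM-scaled) on the vertical axis, 1 point per library labelled with its replicate number, and the mean ± SD of 3 libraries as a line and bar. CDKN1A and TP53INP1 are highest in bile acid library 1 (185 and 17.7 CPM), while BBC3, TP53I3 and DDB2 are highest in control 2 (26.3, 10.3 and 67.5 CPM).

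The arrest gene CDKN1A had the largest difference of the 9. It encodes p21, an inhibitor of cyclin-dependent kinases that halts the cell cycle (chromosome 6, 36676460 to 36687339, plus strand, GRCh38). CDKN1A measured 75.04, 75.7 and 67.8 CPM in controls 1 to 3 and 185, 89.4 and 87.0 CPM in bile acid libraries 1 to 3. The controls lay close together, bile acid libraries 2 and 3 lay just above them, and library 1 lay far above both. Group means were 72.8 ± 4.39 CPM and 120.4 ± 55.8 CPM (SD, n = 3). The log2 fold change was 0.73 (SE 0.32, 95% interval −0.01 to 1.46) with an edgeR adjusted p of 0.911 and an unadjusted p of 0.0533. Its adjusted p was 0.559 without control 2 in edgeR, where the log2 fold change was 0.76, and 0.275 in DESeq2. Without bile acid library 1 the log2 fold change was 0.28, still with no overlap between groups. The unadjusted p of CDKN1A was 0.0418 in DESeq2 and, in edgeR, 0.0238 without control 2. It was 0.0741 in limma-voom and, in edgeR, 0.215 without bile acid library 1. The authors' deposited table gives CDKN1A a log2 fold change of 0.75 (SE 0.35) with an unadjusted p of 0.0349 and an adjusted p of 0.977.

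Immediate-early genes, the first genes that growth factors and stress switch on, were highest in the same library as CDKN1A. The median of the 12 listed genes relative to their means over the libraries was 1.97 log2 units in bile acid library 1, 0.09 and 0.67 in libraries 2 and 3, and −0.86, −0.82 and −1.21 in controls 1 to 3. EGR1, a zinc-finger factor, measured 3137 CPM in bile acid library 1 and 389 and 875 CPM in libraries 2 and 3, against 72.7 to 174 CPM in the controls. FOS, an AP-1 subunit, measured 366, 60.1 and 144 CPM against 11.8 to 23.4 CPM. None of the 12 passed in edgeR, and DESeq2 called 5 of them, beside 0.111% of all genes. The part of these 12 genes in the CDKN1A values was not tested.

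MDM2, the ligase of the feedback loop, differed least from library to library in the controls (chromosome 12, 68808176 to 68850686, plus strand). It measured 41.3, 37.6 and 39.6 CPM in controls 1 to 3 and 50.0, 39.95 and 37.0 CPM in bile acid libraries 1 to 3. The groups overlapped, and bile acid library 1 was again the highest. The log2 fold change was 0.10 (SE 0.19, 95% interval −0.33 to 0.53), which was −0.03 without bile acid library 1 and −0.12 with the trend on gene length removed. The interval does not reach a log2 change of 1 in either direction.

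GDF15, a secreted stress hormone of the TGF-β superfamily, split the bile acid libraries (chromosome 19, 18374731 to 18389176, plus strand). Its values were 52.98, 81.6 and 85.9 CPM in controls 1 to 3 and 112, 108 and 46.4 CPM in bile acid libraries 1 to 3. Bile acid libraries 1 and 2 lay above every control, and library 3 lay below every control. The log2 fold change of 0.27 (SE 0.36, 95% interval −0.58 to 1.13) did not exceed this spread. Leaving out a library moved it to 0.08 without bile acid library 1 and 0.59 without library 3.

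BBC3 encodes PUMA, a BH3-only protein that triggers apoptosis at mitochondria (chromosome 19, 47220822 to 47232766, minus strand). BBC3 measured 10.9, 26.3 and 11.7 CPM in the controls and 10.1, 19.99 and 14.0 CPM in bile acid libraries. Replicate 2 was the highest of both groups, and bile acid library 1, in which CDKN1A peaked, held the lowest value of all 6. The log2 fold change of −0.15 (SE 0.41, 95% interval −1.11 to 0.82) became 0.39 without control 2.

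DDB2, the subunit that recognises ultraviolet lesions for nucleotide excision repair, showed the largest negative value of the 9 (chromosome 11, 47214465 to 47239240, plus strand). It measured 28.5, 67.5 and 27.1 CPM in controls 1 to 3 and 26.4, 36.1 and 30.4 CPM in bile acid libraries 1 to 3. A single control library, number 2, lay above all others, and the other 5 spanned 26.4 to 36.1 CPM. The log2 fold change of −0.41 (SE 0.37) turned to 0.16 (SE 0.17) without control 2. Among the proteins that work with DDB2, its partner DDB1 measured 315 to 342 CPM in controls and 345 to 442 CPM in bile acid libraries. CUL4B, a cullin scaffold of the same ligase, measured 94.8, 102 and 87.9 CPM in controls and 166, 146 and 184 CPM in bile acid libraries, a log2 fold change of 0.80 (SE 0.18), and the gene was named after its values were seen. DESeq2 called CUL4B (adjusted p = 0.0250) and edgeR did not (adjusted p = 0.911), and its adjusted p in the authors' deposited table is 0.106. CUL4A, the other cullin of that ligase, had a log2 fold change of 0.11 (SE 0.18).

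TP53I3, a quinone oxidoreductase-like protein, shared with DDB2 a high value in control 2 (chromosome 2, 24077433 to 24085861, minus strand). It measured 4.53, 10.3 and 4.47 CPM in the controls and 5.10, 4.83 and 5.81 CPM in bile acid libraries. Control 2 alone stood out, and the log2 fold change of −0.29 (SE 0.38) became 0.23 (SE 0.24) without it. TP53INP1, a nuclear cofactor that also takes part in autophagy, measured 10.4, 10.6 and 9.16 CPM in the controls and 17.7, 6.76 and 8.21 CPM in bile acid libraries (chromosome 8, 94925972 to 94949411, minus strand). Bile acid library 1 lay above, and libraries 2 and 3 below, every control. Its log2 fold change was 0.11 (SE 0.38) with all libraries and −0.42 without bile acid library 1.

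SESN1 and ZMAT3 were the steadiest of the 9 beside MDM2. SESN1, a sestrin that restrains mTORC1, measured 13.4, 10.1 and 12.8 CPM in controls 1 to 3 and 11.8, 12.6 and 13.1 CPM in bile acid libraries (chromosome 6, 108986437 to 109094819, minus strand). ZMAT3, a zinc-finger protein that binds RNA and alters splicing, measured 23.2, 22.4 and 32.7 CPM against 29.7, 26.5 and 32.3 CPM (chromosome 3, 179017223 to 179072279, minus strand). Both genes had overlapping groups. Their log2 fold changes were 0.05 (SE 0.21, 95% interval −0.44 to 0.53) and 0.18 (SE 0.22, 95% interval −0.33 to 0.68). The paralogs SESN2 and SESN3 measured −0.09 (SE 0.20) and −0.03 (SE 0.22) as log2 fold changes. Without control 2 SESN1 had −0.06 and SESN2 0.08.

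**Figure D2:**
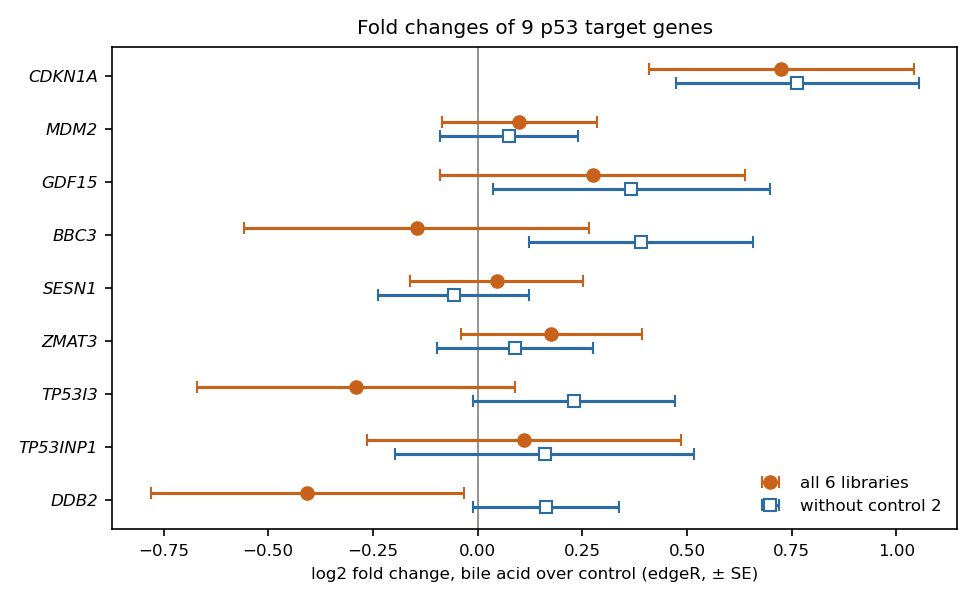
The horizontal axis gives the edgeR log2 fold change of bile acid over control with its standard error for each of the 9 genes, as filled circles for all 6 libraries and open squares without control 2. CDKN1A stays near 0.73 to 0.76, and BBC3, TP53I3 and DDB2 move from −0.15, −0.29 and −0.41 to 0.39, 0.23 and 0.16.

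Levels of the 9 genes relative to each other were compared per length, as RPKM, counts divided by gene length and by the scaled library total. In controls GDF15 (35.2 ± 8.58 RPKM) and CDKN1A (23.9 ± 1.44 RPKM) stood highest, at the 89.9th and 84.6th percentile of 14336 protein-coding genes. Their control ranges did not overlap with each other or with the next gene, but came close (lowest GDF15 25.4, highest CDKN1A 24.8 RPKM). In bile acid libraries 1 to 3 GDF15 measured 53.8, 51.8 and 22.2 RPKM and CDKN1A 60.6, 29.3 and 28.5 RPKM. Gene length here covers the exons of all annotated transcripts, and which transcripts were present was not determined. DDB2 (8.38 ± 4.68 RPKM) and BBC3 (5.12 ± 2.72 RPKM) followed, and the control ranges of these neighbours overlapped. Within each control library DDB2 still lay above BBC3 (5.82, 13.8 and 5.54 against 3.42, 8.26 and 3.68 RPKM). MDM2, TP53I3, ZMAT3 and SESN1 had means from 2.97 down to 2.37 RPKM, each overlapping the next. TP53INP1 was lowest at 1.77 ± 0.14 RPKM, below the range of SESN1 (SD, n = 3 throughout).

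The values of control 2 depended on gene length, and the 9 genes differ in length from 2087 bases (GDF15) to 13284 bases (MDM2). Among 12081 genes averaging 5 CPM or more, control 2 was set against controls 1 and 3 averaged, on the log2 scale. The median of that difference was 0.97 in the shortest of 10 equal bins by length and −0.78 in the longest. DDB2 lay 1.28 log2 units above the other controls, where genes within 1.2 times its length had a median of −0.05, at the 95.9th percentile of those genes. BBC3 lay at 1.21 and the 87.7th percentile, and TP53I3 at 1.18 and the 76.2th. CDKN1A, at 0.09, lay below the median of 0.35 for its length, and MDM2, at −0.11, above the median of −0.75. Of the 9 genes 3 differed by over 1 log2 unit in control 2 (33.3%), beside 36.1% of all genes tested. With the length trend removed DDB2 had a log2 fold change of −0.45 and CDKN1A one of 0.82, and 0 of the 9 were called.

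**Figure D3:**
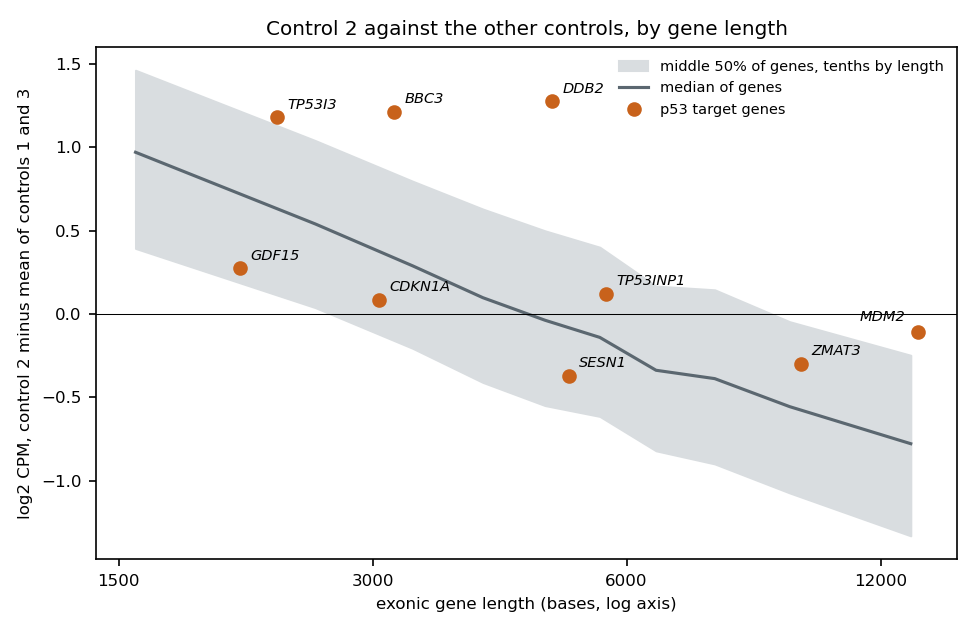
Exonic gene length in bases (log axis) is plotted against log2 CPM in control 2 minus the average of the other 2 controls. The line and band give the median and middle 50% of genes in 10 bins by length, and points are the 9 p53 targets. DDB2, BBC3 and TP53I3 lie above the band, between 1.18 and 1.28, while MDM2 (−0.11) lies above the band at its far end.

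Bile acid library 1 differed from the other bile acid libraries on some of the same genes. TP53INP1 lay 1.24 and CDKN1A 1.07 log2 units above the mean of libraries 2 and 3, at the 99.2th and 98.8th percentile of genes with at least 5 CPM. GDF15 lay 0.66 above (96.3th percentile) and MDM2 0.38 above (87.4th percentile). BBC3 lay 0.73 below, at the 1.18th percentile. A difference of over 1 log2 unit was found in 2 of the 9 genes and 5 of 31 other p53 targets, all upward. It was found in 5.69% of all 17743 genes tested, in both directions together (560 upward and 450 downward).

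A wider list of 31 other p53 targets gave the same count, with 0 called in either direction by edgeR. All 31 passed the filter on low counts. Their median log2 fold change was 0.05, with 16 of 31 above 0, and the range was −0.73 to 0.90. Without control 2 the median was 0.15, with 22 of 31 above 0. FAS, a death receptor, measured 7.08, 7.22 and 6.09 CPM in controls and 13.6, 9.21 and 9.91 CPM in bile acid libraries. Its groups did not overlap, and its log2 fold change was 0.68 (SE 0.24, edgeR unadjusted p = 0.0252, adjusted p = 0.911). FAS was the only one of the 31 with an unadjusted p under 0.05, a share near the 3.31% of all genes. The groups also did not overlap for CCNG1, a cyclin, which was higher in bile acid libraries, and for TIGAR, a regulator of glycolysis, which was lower, so that 2 of 31 lay above and 1 below, beside 5.29% and 4.89% of all genes. BTG2, an antiproliferative factor, had 0.62 (SE 0.35), with 30.0 CPM in bile acid library 1 and 9.89 to 15.5 CPM in the other 5.

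Control 2 held the highest level of some of these targets and the lowest of others. BAX, the pore-forming partner in mitochondrial apoptosis, measured 274 CPM in control 2 and 76.5 to 94.2 CPM in the other libraries. Its log2 fold change of −0.73 (SE 0.49) turned to 0.15 (SE 0.13) without control 2. FDXR, a mitochondrial reductase, measured 118 CPM there and 35.3 to 52.97 CPM elsewhere, and PHLDA3, an inhibitor of AKT, 76.1 CPM and 33.5 to 46.4 CPM. Their log2 fold changes were −0.61 and −0.25 with all libraries and −0.0051 and 0.17 without control 2. XPC, a sensor of DNA lesions, went the other way, with 6.38 CPM in control 2 and 24.2 to 32.8 CPM elsewhere. Of the 31 targets 10 differed by over 1 log2 unit in control 2 (32.3%), 7 upward and 3 downward, which is not above the 36.1% of all genes tested. Among the remaining named targets the log2 fold changes were 0.26 for PMAIP1 (NOXA), 0.26 for the death receptor TNFRSF10B, 0.19 for GADD45A, 0.27 for CCNG1 and 0.28 for the phosphatase PPM1D. The ribonucleotide reductase subunit RRM2B had 0.11 and the nuclease AEN −0.08, which became −0.02 and 0.11 without control 2. TIGAR, at only 0.59 to 1.29 CPM, had −0.52 (SE 0.45).

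Of 26 listed regulators and relatives of p53 25 were tested, 0 were called by edgeR, and the median log2 fold change was 0.11, with 15 of 25 above 0. Without control 2 the median was 0.05. MDM4, the relative of MDM2 that restrains p53, measured −0.33 (SE 0.27) as a log2 fold change and the deubiquitinase USP7 0.06 (SE 0.17). The damage kinases ATM and CHEK2 had 0.49 (SE 0.53) and −0.13 (SE 0.36), with ATM at 17.1 CPM in control 2 and 64.3 to 97.8 CPM elsewhere. Without control 2 ATM had 0.07 and CHEK2 0.43. CDKN2A, whose ARF product blocks MDM2, measured 137 to 162 CPM in controls and 172 to 201 CPM in bile acid libraries, a log2 fold change of 0.32 (SE 0.17) that did not pass (edgeR, adjusted p = 0.911).

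Cell cycle genes that p21 represses through the DREAM complex were also not called in edgeR, with 0 of 20. Their median log2 fold change was 0.19, and 13 of 20 were above 0. Without control 2 their median was 0.20, and 17 of 20 were above 0. In 4 of the 20 all bile acid libraries lay above all controls, beside 5.29% of all genes. In 0 of the 20 all lay below, beside 4.89% of all genes. CCNB1, the mitotic cyclin B1, measured 216 to 298 CPM in controls and 283 to 332 CPM in bile acid libraries, a log2 fold change of 0.29 (SE 0.20). MKI67, a proliferation marker, had 0.09 (SE 0.29) and PCNA, the replication clamp, −0.13 (SE 0.30), which became −0.13 and 0.26 without control 2. The p21 relatives CDKN1B and CDKN1C had 0.27 (SE 0.19) and 0.42 (SE 0.24). ATF4 and its stress-response targets, which can raise GDF15 without p53, had a median of −0.11 over 12 genes with 0 called. Of these 12 genes 3 were above 0. Without control 2 the median was −0.03, with 5 of 12 above 0. The part of these genes in the GDF15 values was not tested. DDIT3 measured 173 CPM in control 2 and 21.7 to 58.0 CPM elsewhere, ATF3 had a log2 fold change of 0.22 (SE 0.32) and TRIB3 one of −0.26 (SE 0.26).

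**Figure D4:**
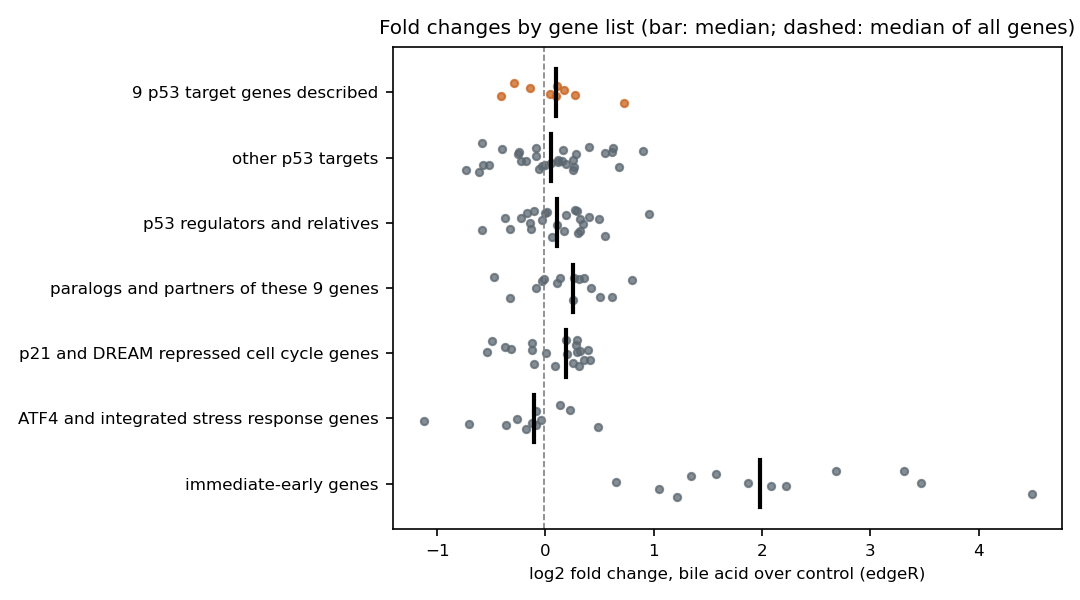
Each point is the edgeR log2 fold change of bile acid over control for 1 gene, by list, with a bar at the list median and a dashed line at the median of all genes (−0.01). The medians of the p53 lists lie between 0.05 and 0.11, that of the cell cycle genes at 0.19 and that of the immediate-early genes at 1.98.

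The genes most like CDKN1A over the 6 libraries were PPP1R10, MAFG and DTX3L, among 11393 protein-coding genes with at least 5 CPM. Their root mean square distance from CDKN1A in centred log2 CPM was 0.10, 0.12 and 0.15, where the median gene lay at 0.55. PPP1R10 measured 115 CPM in bile acid library 1 and 50.9 to 60.5 CPM in the others. Of the other 8 targets TP53INP1 came nearest to CDKN1A, at 0.34. The nearest to MDM2 were VAMP7, EXTL3 and PXYLP1, at 0.03 each, and the nearest to GDF15 were ABHD5, MAP1LC3B and PPP1R15A, at 0.21 to 0.24.

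The authors' deposited table of Gene Ontology terms lists 5 terms that name p53, all with a positive score. The term for signal transduction by p53 class mediator has a normalized enrichment score of 1.73 and an adjusted p of 0.000314 in that table, in which 2114 of 2196 terms are positive. In the authors' deposited table CDKN1A is among the leading genes of 2 of the 5 terms, and the other 8 targets are among the leading genes of 0.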

How the data were processed

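RNA of 3 control and 3 bile acid libraries was sequenced. The submitters' processing notes list GRCh38, HISAT2 2.0.5, DESeq2 and featureCounts and state no role for any. Strand handling in counting is not given in these sources. Exons of other genes overlap 0% to 9.21% of the exonic length of the 9 genes. The authors deposited whole-number read counts per gene, FPKM, and normalized counts, a signal from which whole reads were recovered (100% of values within 0.001). The authors' deposited comparison holds log2 fold changes and p-values per gene, and their term table holds an enrichment score, a p-value and other values such as term size. Gene starts and ends in the table of counts were those of GENCODE release 29 for 58724 of 58735 genes.

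Groups were compared with edgeR 4.0.16 under R 4.3.3, by quasi-likelihood on the counts as deposited, with TMM scaling, filterByExpr, no covariate and a Benjamini-Hochberg adjusted p under 0.05 over all genes. SE is the log2 fold change divided by the root of F. Alternatives used DESeq2 1.42.0, limma 3.58.1, other scaling and filters, a replicate block, removal of the length trend (lowess, span 0.3), log2(FPKM + 1) and log2(FPKM + 0.1), and each library left out. Deposited FPKM were divided by 1.18 to 1.22 times the count total in 5 libraries and by 0.999 times in control 2, so levels come from the counts. The tests were checked on simulated data, in which DESeq2 made more false calls than edgeR or limma-voom. The simulated counts held no library set apart like control 2 and no length trend. They therefore do not decide between the tools for these data. The 9 genes, the lists and the named genes (the 9, a fixed set of related genes, and the 3 nearest genes to CDKN1A, MDM2 and GDF15) were chosen with earlier results of these data known. 1 gene of the list of p53 regulators is not reported here.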

Additional observations from a re-analysis of the deposited data

How the results depend on the processing

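Under 21 alternatives 0 of the 9 p53 targets were called, and the lowest adjusted p of any of them was 0.275 (CDKN1A, DESeq2 without control 2, an alternative chosen after seeing the data). The number of all genes called, 0 in edgeR, was 19 in DESeq2, 158 in DESeq2 without control 2, and 0 to 1 with each library left out, the 1 without control 2. On the recovered reads edgeR called 0 genes, as did limma on FPKM rescaled to each count total, also chosen after seeing the data. The median log2 fold change of the 9 was 0.10 and ranged from −0.011, with the length trend removed together with the replicate block, to 0.16. The count of targets whose groups did not overlap ran from 1 to 2 with each library left out. It was 2 without control 2, control 3, bile acid library 1 or bile acid library 3. Groups separate more easily with fewer libraries, and the share over all genes is not given for these settings.

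CDKN1A, GDF15 and ZMAT3 kept a positive value under every alternative run, at 0.28 to 0.92, 0.08 to 0.59 and 0.03 to 0.38. MDM2 turned to −0.12 with the length trend removed, −0.10 with that and the replicate block, and −0.032 to 0.19 with each library left out, the lowest without bile acid library 1. Without control 2 BBC3 turned to 0.39, TP53I3 to 0.23 and DDB2 to 0.16 in both edgeR and DESeq2, and SESN1 to −0.057 in edgeR and −0.058 in DESeq2. BBC3 also turned to 0.071 without bile acid library 1. With each library left out the values ran from −0.42 to 0.39 for BBC3, −0.49 to 0.23 for TP53I3, −0.62 to 0.16 for DDB2 and −0.057 to 0.13 for SESN1. TP53INP1 turned to −0.015 in limma-voom, −0.012 with the replicate block, −0.067 with that and the length trend removed and −0.031 on log2(FPKM + 0.1). With each library left out it ran from −0.42, without bile acid library 1, to 0.37. None of these values passed, and the cause was not tested.

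The replicate numbers share no stated batch. Deviations of same-numbered libraries correlated at 0.31, 0.38 and 0.10 across genes, the last just under 0.1, and control 3 correlated best with bile acid library 1. The replicate block left 0 genes called. With 3 libraries a group, log2 fold changes of the 9 had standard errors of 0.19 to 0.41, which is what limits them, since counting error at 105 or more counts is smaller.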

Other observations

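SFN, the p53 target that encodes the cell cycle inhibitor 14-3-3σ, measured 75.4 CPM in control 2, 25.4 and 21.8 CPM in controls 1 and 3, and 41.0, 37.6 and 41.0 CPM in bile acid libraries. Its log2 fold change was −0.03 with all libraries and 0.77 without control 2. Without control 2 SFN was the only one of the 31 other p53 targets that DESeq2 called (adjusted p = 0.00185). DESeq2 then called 0.979% of all genes, and edgeR called 0 of the 31. SFN was singled out after its values were seen.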
